A study of Homo sapiens with 12 samples.

Results

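The genes described here control how blood clots form and dissolve at the surface of monocytes, and there are 6 of them among the 58735 rows of the count table: F3, THBD, TFPI, SERPINB2, F13A1 and PROCR. They were taken by name from the table, 1 row each, with earlier results of these data known, and all 6 passed the filter on low counts, a sum of at least 10 counts over the libraries. RNA was sequenced from THP1 cells, an established line of human leukemic monocytes labelled wild type, in 4 groups of 3 libraries. THP1 cells were kept for 24 h in endothelial cell medium on a porous insert, without endothelial cells (mono-culture) or above human umbilical vein endothelial cells (ECs). The ECs below were control ECs given the vehicle DMSO, ECs made senescent with the topoisomerase poison etoposide (senECs), or senECs also given the green tea catechin epigallocatechin gallate (EGCG-treated senECs). THP1 cells were then taken out and given 100 ng/ml lipopolysaccharide (LPS) for 2 h, in mono-culture as well as in the co-cultures, so that all 12 libraries are of LPS-stimulated cells and the values hold no unstimulated level. The labels do not state that the libraries of a group came from separate cultures, so that p-values measure the spread between these libraries, which may be technical.

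Coagulation starts when tissue factor, the product of F3, meets factor VII of the plasma, and it leads to thrombin, which turns fibrinogen into fibrin. Tissue factor pathway inhibitor (TFPI) holds back this start, while thrombomodulin (THBD) and the endothelial protein C receptor (PROCR) turn thrombin toward activation of protein C, which stops the cascade. Factor XIII, whose catalytic subunit is made from F13A1, crosslinks the finished fibrin, and plasminogen activator inhibitor 2 (SERPINB2) blocks urokinase, the enzyme that starts to dissolve it. Monocytes are known to make tissue factor and plasminogen activator inhibitor 2 after LPS, whereas thrombomodulin, the protein C receptor and TFPI are best known from endothelium.

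Totals ran from 15439836 to 22092600 counts per library, at which 3 counts correspond to 0.132 to 0.191 CPM, the usual unit of counts scaled to a common library size. Any 2 libraries of a group differed beyond counting error (chi-square over its degrees of freedom 9.23 to 33.7). The 12 markers of monocytes and THP1 cells summed to 871 to 1480 CPM, and none of them was at 0. Of 16 endothelial markers, 5 (CDH5, EMCN, MMRN1, SOX17 and PLVAP) had at most 3 counts in every library, and MMRN1 and SOX17 were at 0 throughout. The endothelial list summed to 26.6 to 32.1 CPM in mono-culture, where no EC was present, to 28.8 to 34.6 CPM with control ECs, to 29.7 to 39.0 CPM with senECs and to 29.5 to 33.9 CPM with EGCG-treated senECs.

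F3 and F13A1 followed the same libraries while SERPINB2 did not, and the DNA before the starts of these 3 genes is shown for that reason. The windows are the 250 bases before the RefSeq start in GRCh38.p14, read 5′ to 3′ on the strand of the gene, with matches to the AP-1 motif (TGANTCA) in capitals. They are chr1:94541760-94542009 on the minus strand for F3, chr6:6320663-6320912 on the minus strand for F13A1 and chr18:63887455-63887704 on the plus strand for SERPINB2.
F3: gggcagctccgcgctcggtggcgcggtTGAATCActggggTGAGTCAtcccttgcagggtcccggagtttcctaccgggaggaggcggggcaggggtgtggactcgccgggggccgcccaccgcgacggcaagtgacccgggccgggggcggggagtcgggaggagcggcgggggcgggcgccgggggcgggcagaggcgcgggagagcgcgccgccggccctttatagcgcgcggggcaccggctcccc
F13A1: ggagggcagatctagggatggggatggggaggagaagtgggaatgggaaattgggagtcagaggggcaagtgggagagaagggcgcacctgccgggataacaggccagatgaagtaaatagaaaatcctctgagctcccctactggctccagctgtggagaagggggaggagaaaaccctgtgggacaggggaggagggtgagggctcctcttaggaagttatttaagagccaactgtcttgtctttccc
SERPINB2: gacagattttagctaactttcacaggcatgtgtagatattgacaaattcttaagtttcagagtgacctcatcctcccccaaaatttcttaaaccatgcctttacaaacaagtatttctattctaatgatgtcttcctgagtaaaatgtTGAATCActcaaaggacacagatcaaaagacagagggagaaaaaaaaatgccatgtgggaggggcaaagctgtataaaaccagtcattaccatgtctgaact
The AP-1 letters occurred at -223 to -217 and at -210 to -204 before F3, and at -102 to -96 before SERPINB2, counted back from the start. They were not found in the windows of F13A1, TFPI or PROCR, and they are held by 6.57% of 35116 such windows, searched on both strands. The SP1 motif (GGGCGG), present in 42.6% of the windows, occurred 4 times before F3 and 2 times before PROCR. The KLF motif (CACCC), present in 54.7%, occurred 2 times before F3, where 1 match overlaps an AP-1 match, and 1 time before F13A1. The NF-kB motif was searched as GGG, then A or G, 2 bases of any kind, 2 of C or T, and CC. This exact pattern, present in 9.96%, was found in none of the 5 windows. Sites that depart from it were not searched, so a window without a match may still hold an NF-kB site. These matches describe the letters alone.

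Levels were compared between genes per length, in FPKM, which divides the CPM by the gene's length in kilobases, with the union of exons of GENCODE release 29 (GRCh38) as the length. THBD stood far above the other members, with a mean of 141 FPKM over the 12 libraries and a range from 121 to 157. F3 followed at 7.88 FPKM, PROCR at 2.98, SERPINB2 at 2.66 and F13A1 at 0.506. TFPI had the lowest level, 0.057 FPKM, from 3 to 38 counts per library. Thus the transcript of THBD, the receptor that diverts thrombin, exceeded that of F3 in every library, at FPKM ratios between 10.9 and 27.2. Protein at the cell surface was not measured in these libraries. The lowest of these ratios belonged to EGCG-treated senECs replicate 5 and the highest to EGCG-treated senECs replicate 1, so that the whole range of the study lay within 1 group.

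**Figure D1:**
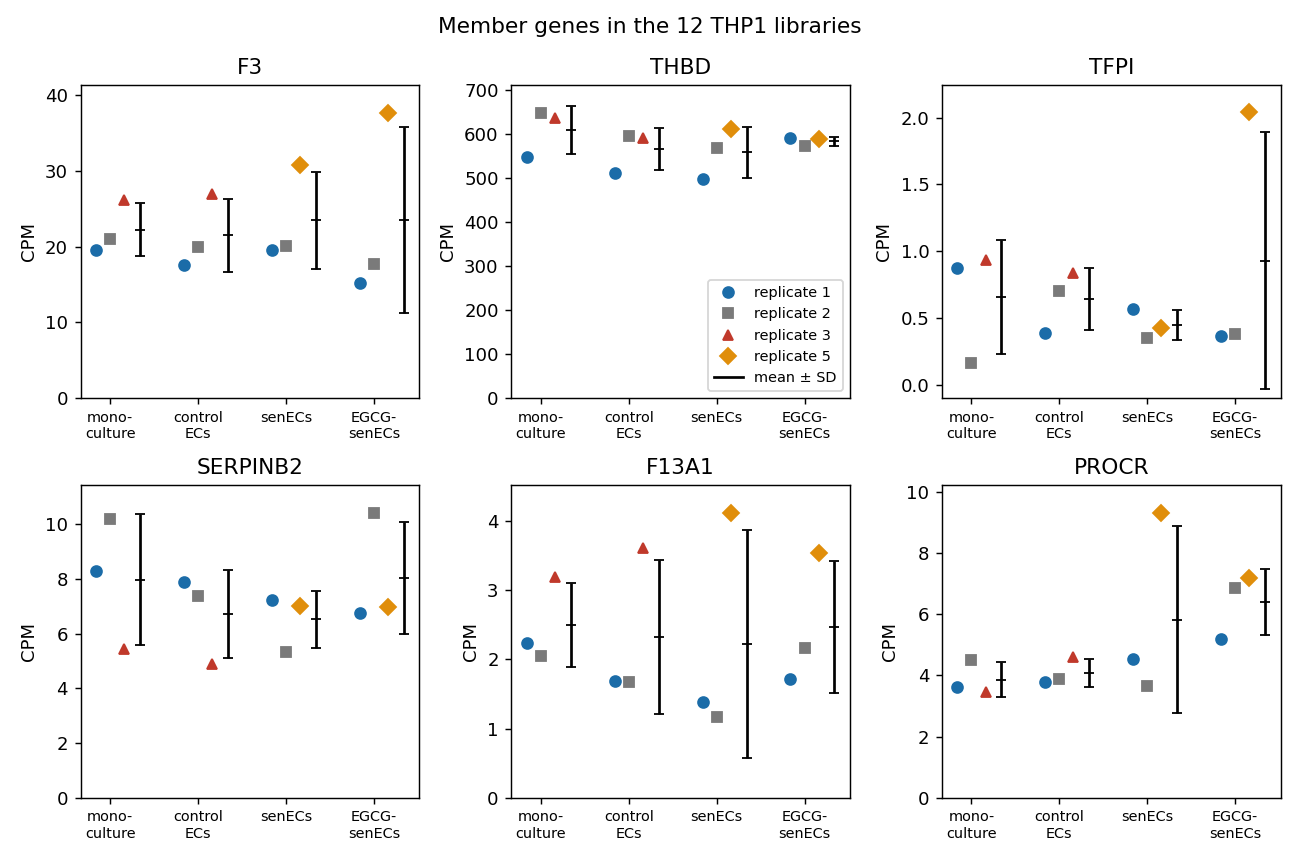
Level of the 6 members in CPM (vertical axes) in each of the 12 libraries, by group (horizontal axes), with marker shape and color for the replicate number and black bars for the mean ± SD of 3 libraries; axes start at 0 except for TFPI, whose widest bar passes below 0. F3 and F13A1 are highest in replicate 3 or 5 of each group, THBD stays between 496 and 646 CPM, and PROCR of EGCG-treated senECs lies above mono-culture and control ECs.

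F3 (ENSG00000117525.13, chr1:94529225-94541800, minus strand, protein coding), the trigger of coagulation, did not separate the groups. It was at 19.5, 21.0 and 26.2 CPM in mono-culture, at 17.6, 20.0 and 26.9 CPM with control ECs, at 19.5, 20.1 and 30.8 CPM with senECs, and at 15.2, 17.7 and 37.6 CPM with EGCG-treated senECs (replicates in the order of their numbers). All groups overlapped, and the group means of 22.2 ± 3.54, 21.5 ± 4.84, 23.5 ± 6.38 and 23.5 ± 12.3 CPM (SD, n = 3) were closer to each other than the libraries of any group. The log2 fold change was 0.04 for the mean of the 3 co-cultures against mono-culture (SE 0.21, edgeR adjusted p = 0.979), 0.13 for senECs against control ECs (SE 0.26, edgeR adjusted p = 0.935) and 0.01 for EGCG-treated senECs against senECs (SE 0.26, edgeR adjusted p = 1). Its highest library was replicate 5 of EGCG-treated senECs, and without that library the last of these values was -0.51. In bulk RNA, fewer cells that carry a transcript and less of it per cell cannot be told apart, here and for the genes below.

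TFPI (ENSG00000003436.15, chr2:187464230-187565760, minus strand), the inhibitor of tissue factor with factor VII, was near the limit of what could be counted. Its counts were 14, 3 and 17 in mono-culture, 8, 16 and 15 with control ECs, 11, 6 and 7 with senECs, and 6, 6 and 38 with EGCG-treated senECs. The library with 38 counts is again EGCG-treated senECs replicate 5, and all other libraries of the 3 co-cultures had 16 or fewer. The log2 fold change of EGCG-treated senECs against senECs, 1.06 (SE 0.69, edgeR adjusted p = 1), became -0.26 without it. A transcript in antisense, AC007319.1, overlaps exons of TFPI with 0 to 3 counts, and whether counting used strand is not given in the sources used here.

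THBD (ENSG00000178726.6, chr20:23045633-23049741, minus strand, 1 transcript), the cofactor that lets thrombin activate protein C, was the most abundant and the steadiest member. It was measured at 546, 646 and 635 CPM in mono-culture, at 511, 594 and 590 CPM with control ECs, at 496, 567 and 610 CPM with senECs, and at 590, 571 and 588 CPM with EGCG-treated senECs. The groups overlapped, and the ratio of the highest to the lowest library within a group was 1.03 to 1.23. With at least 8784 counts per library, THBD had the smallest standard errors of the members, and log2 fold changes over the 7 comparisons stayed between -0.13 and 0.06. For the mean of the co-cultures against mono-culture it was -0.10 (SE 0.08, edgeR adjusted p = 0.73). For senECs against control ECs it was -0.02 (SE 0.10, edgeR adjusted p = 0.983), and for EGCG-treated senECs against senECs it was 0.06 (SE 0.10, edgeR adjusted p = 1).

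PROCR (ENSG00000101000.5, chr20:35172073-35216240, plus strand), the receptor that presents protein C to thrombomodulin, was the only member whose groups did not all overlap. It was at 3.61, 4.52 and 3.47 CPM in mono-culture and at 3.79, 3.87 and 4.61 CPM with control ECs. With senECs it was at 4.54, 3.64 and 9.31 CPM, and with EGCG-treated senECs at 5.18, 6.86 and 7.18 CPM. Every library of EGCG-treated senECs was above every library of mono-culture and of control ECs, whereas senECs overlapped every other group, with replicate 5 the highest library of the study. The group means were 3.87 ± 0.572, 4.09 ± 0.454, 5.83 ± 3.04 and 6.41 ± 1.07 CPM (SD, n = 3). None of the differences passed the test over all genes. EGCG-treated senECs differed from mono-culture by a log2 fold change of 0.73 (SE 0.28, edgeR adjusted p = 0.498) and from control ECs by 0.65 (SE 0.28, edgeR adjusted p = 0.979). The value of senECs against mono-culture was 0.59 (SE 0.28, edgeR adjusted p = 0.463) and against control ECs 0.51 (SE 0.28, edgeR adjusted p = 0.728). Both rest on senECs replicate 5, without which they were 0.08 and 0.01. Between EGCG-treated senECs and senECs the log2 fold change was 0.14 (SE 0.28, edgeR adjusted p = 1), and 0.64 without that library. For control ECs against mono-culture it was 0.08 (SE 0.29, edgeR adjusted p = 0.993), and for the mean of the co-cultures against mono-culture 0.46 (SE 0.24, edgeR adjusted p = 0.509). Since endothelium is rich in PROCR, THBD and TFPI, the endothelial sums given above stand beside these values. The highest sum of the study, 39.0 CPM, was in senECs replicate 5, the library with the most PROCR. Most of each sum came from EGFL7, which was at 17.8 to 21.7 CPM in mono-culture and reached its highest level, 30.4 CPM, in that library. ROBO4 also peaked there, with 7 counts against 0 to 3 in every other library. CDH5 and EMCN were at 0 counts in every library with senECs or control ECs, and had at most 1 and 3 counts elsewhere. ERG was at 0.186 to 0.592 CPM in mono-culture and at 0.945 to 1.63 CPM with control ECs. With senECs it was at 0.752 to 1.15 CPM, highest in replicate 5, and with EGCG-treated senECs at 0.183 to 1.18 CPM. KDR went the other way, with group means of 0.232, 0.0741, 0.137 and 0.0536 CPM in the same order. The mean log2(CPM + 2) of the 16 endothelial markers did not peak in senECs replicate 5. It was 1.53 there, beside 1.62 in control ECs replicate 2, 1.57 in EGCG-treated senECs replicate 5 and 1.54 in mono-culture replicate 3. The part of endothelial RNA in the levels of PROCR was not tested. An antisense transcript, AL356652.1, overlaps exons of PROCR with 0 to 2 counts.

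SERPINB2 (ENSG00000197632.8, chr18:63871692-63903890, plus strand), the inhibitor of urokinase, also showed no separation. It was at 8.27, 10.2 and 5.45 CPM in mono-culture, at 7.87, 7.38 and 4.89 CPM with control ECs, at 7.22, 5.32 and 7.01 CPM with senECs, and at 6.76, 10.4 and 6.96 CPM with EGCG-treated senECs. Its highest library was replicate 2 in mono-culture and with EGCG-treated senECs but replicate 1 in the other two groups, unlike that of F3. The log2 fold change was -0.17 for the mean of the co-cultures against mono-culture (SE 0.20, edgeR adjusted p = 0.815), -0.05 for senECs against control ECs (SE 0.25, edgeR adjusted p = 0.982) and 0.30 for EGCG-treated senECs against senECs (SE 0.25, edgeR adjusted p = 1). Its exons overlap those of SERPINB10 on the same strand, which had 18 to 60 counts per library, so that the counting could split reads between them.

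F13A1 (ENSG00000124491.15, chr6:6144085-6321013, minus strand), the subunit that crosslinks fibrin, showed no group difference but split by replicate number. It was at 2.24, 2.05 and 3.19 CPM in mono-culture, at 1.68, 1.67 and 3.61 CPM with control ECs, at 1.39, 1.16 and 4.11 CPM with senECs, and at 1.71, 2.16 and 3.53 CPM with EGCG-treated senECs. Replicate 3 or 5 was the highest in all 4 groups, and these 4 libraries alone lay above 3 CPM. The groups overlapped, with a log2 fold change of -0.10 for the mean of the co-cultures against mono-culture (SE 0.35, edgeR adjusted p = 0.959), -0.06 for senECs against control ECs (SE 0.44, edgeR adjusted p = 0.987) and 0.17 for EGCG-treated senECs against senECs (SE 0.44, edgeR adjusted p = 1). Leaving out senECs replicate 5 moved the value against control ECs to -0.84, and leaving out control ECs replicate 3 moved it to 0.40.

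**Figure D2:**
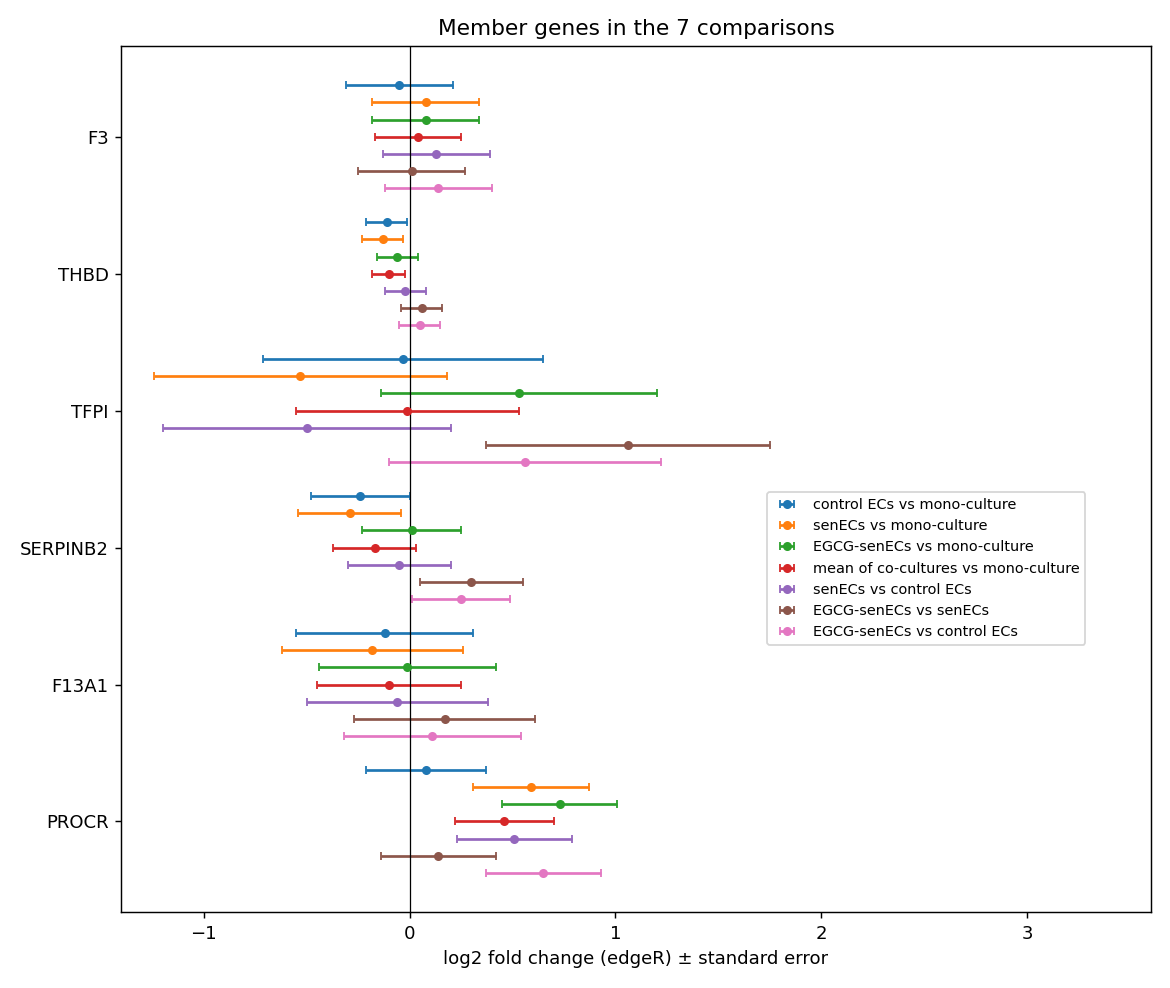
Log2 fold change of the 6 members (horizontal axis, points) with its standard error (bars) in the 7 comparisons, by color. THBD stays within -0.13 to 0.06, TFPI has the widest bars, and the values of PROCR are the highest of the members in the comparisons of senECs and of EGCG-treated senECs with mono-culture, at 0.59 and 0.73.

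Over the 7 comparisons, 0 of the 6 members were called at an edgeR adjusted p under 0.05. The share of all 25873 genes called was 0.143% for control ECs, 0.309% for senECs and 0.213% for EGCG-treated senECs against mono-culture, and 0.723% for the mean of the co-cultures. It was 0.0% wherever a co-culture was compared with another co-culture. DESeq2 called 0 members as well, against 0.464%, 1.34%, 0.889% and 1.69% of all genes in the comparisons with mono-culture in the same order and 0.0% in the other three. DESeq2 gave no adjusted p for TFPI in the 4 comparisons with mono-culture. At an unadjusted p under 0.05, edgeR counted 1 member, PROCR, in EGCG-treated senECs against mono-culture, where 8.58% of genes did so, and in EGCG-treated senECs against control ECs, where 4.55% did. It counted 0 members for control ECs against mono-culture (6.52% of genes), senECs against mono-culture (11.0%), the mean of the co-cultures (10.7%), senECs against control ECs (6.6%) and EGCG-treated senECs against senECs (2.22%).

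Groups that did not overlap gave the same picture. PROCR was 1 of 6 members without overlap between EGCG-treated senECs and mono-culture, as were 14.1% of all genes, and between EGCG-treated senECs and control ECs, as were 9.49%. In the remaining pairs 0 members were without overlap, beside 12.8% of genes for control ECs and 16.7% for senECs against mono-culture, 11.0% between senECs and control ECs and 5.48% between EGCG-treated senECs and senECs. When the 4 groups were put in order of their mean log2(CPM + 2), no neighbours differed by more than 1 SD, pooled over the 2 groups, for any member. The highest and lowest group means were further apart than the SD pooled over all groups for PROCR (0.515 against 0.294) and THBD (0.128 against 0.118). For the other members they were closer than that SD. The median log2 fold change of the 6 members was -0.06 for the mean of the co-cultures against mono-culture, -0.03 between senECs and control ECs and 0.16 between EGCG-treated senECs and senECs, beside -0.02, -0.01 and 0.00 over all genes. In EGCG-treated senECs set against control ECs the median of the members was 0.20, beside 0.00 over all genes. All 6 values were above 0, from 0.05 to 0.65, as were 50.0% of all genes. In EGCG-treated senECs replicates 1 and 2, F3 was at 15.2 and 17.7 CPM, TFPI at 0.365 and 0.381 and F13A1 at 1.71 and 2.16. These lay below the control EC means of 21.5, 0.64 and 2.32 CPM. For THBD, SERPINB2 and PROCR both libraries were above the control EC mean. Fits without single libraries are given for PROCR alone in that comparison. All 6 log2 fold changes were above 0 for EGCG-treated senECs against senECs, from 0.01 to 1.06, as were 49.9% of all genes. There, those of F3, THBD, TFPI, F13A1 and PROCR each turned below 0 when some single library was left out. Both comparisons use the same EGCG-treated senEC libraries. Against mono-culture, members above 0 were 1 for control ECs (50.7% of all genes), 2 for senECs (48.0%) and 4 for EGCG-treated senECs (49.6%). The count was 2 for the mean of the co-cultures (47.6%) and 2 for senECs against control ECs (49.2%).

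Among the members, F3 and F13A1, 2 of the 6, were highest in replicate 3 or 5 in all 4 groups, as were 4.35% of all genes tested, and the other 4 members were not. What the number marks is not given in the labels. Number 3 occurs only in mono-culture and with control ECs, and number 5 only with senECs and with EGCG-treated senECs. A difference between numbers 3 and 5 therefore cannot be told apart from one between these groups. The 15 genes of an early LPS response list (among them TNF, IL1B, CXCL8 and PTGS2) were all highest there, and summed to 2800 to 3500 CPM in replicate 1, 4320 to 4370 CPM in replicate 2 and 6240 to 8400 CPM in replicate 3 or 5. The same held for 6 of 12 monocyte markers and for 0 of 16 endothelial markers. Of the 12 monocyte markers, 2 (MPO and LILRB4) were instead lowest in replicate 3 or 5 in all 4 groups. Among 44 other genes of coagulation and fibrinolysis, F8, PROS1, PLAU, PLAUR, ANXA2 and SERPINE2 were highest in replicate 3 or 5 in all groups. F2 and VKORC1 were lowest there, F2 with only 0 to 8 counts per library. The share of all genes that were lowest there is not given. PLAUR, the receptor of urokinase, was at 55.3 to 67.3 CPM in replicate 1, at 75.6 to 96.9 CPM in replicate 2 and at 114 to 142 CPM in replicate 3 or 5. The part of the LPS response in the levels of F3 and F13A1 was not tested.

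**Figure D3:**
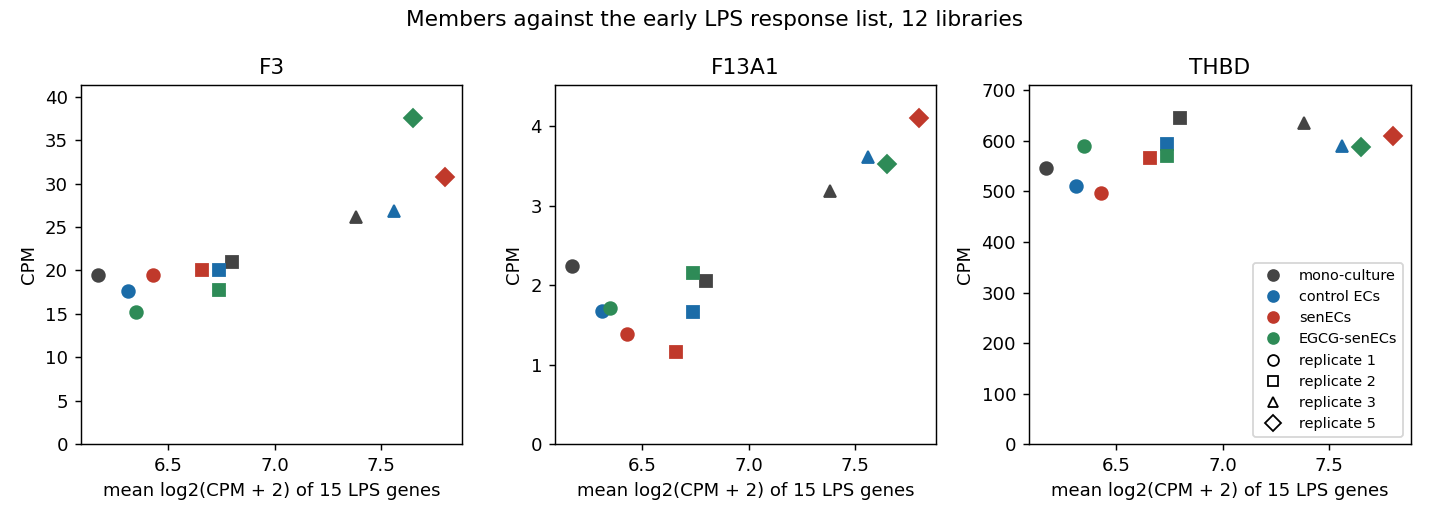
CPM of F3, F13A1 and THBD (vertical axes, from 0) against the mean log2(CPM + 2) of 15 early LPS response genes (horizontal axes) in the 12 libraries, with color for the group and shape for the replicate number. For F3 and F13A1 the 4 libraries of replicate 3 or 5 stand at the upper right, at a list mean of 7.38 to 7.80, where THBD runs from 588 to 635 CPM.

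Genes whose pattern over the 12 libraries was most like that of a member were taken by Pearson's r of log2(CPM + 2) among 10828 genes with a mean of at least 5 CPM, as a description. Libraries share groups and replicate numbers, and each r is the highest of the many computed. F3 was followed most closely by TLR2, a receptor of bacterial lipoproteins (r = 0.95), RCAN1, a regulator of calcineurin (r = 0.93), and SHROOM3 (r = 0.93). For F13A1 they were the chemokine gene CCL3L1 (r = 0.93), CD4 (r = 0.92) and LY6E (r = 0.91). CCL3L1 is a near copy of CCL3, and reads may be split between them. THBD was closest to CHPF (r = 0.92) and C1GALT1C1 (r = 0.89), SERPINB2 to HADH (r = 0.91), NRM (r = 0.85) and MTFMT (r = 0.82), and PROCR to COX5A (r = 0.90), EPOP (r = 0.89) and DDX39A (r = 0.89). TFPI, with a mean of 0.667 CPM, was too low for this. Between the members, r was highest for F3 with F13A1, at 0.82, and was 0.40 for F3 with THBD and -0.35 for F3 with SERPINB2.

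The rest of the pathway was covered by 44 genes in 7 lists by role, of which 34 passed the filter on low counts. The partners of tissue factor and TFPI at the start were nearly silent: F7, the gene of factor VII, was at 0 in all 12 libraries, which allows up to 3 counts per library, and TFPI2 had 0 to 9 counts. Of the circulating factors, F9, FGA, FGB and FGG were at 0 throughout, and the highest were F8 at 0.596 FPKM and F12 at 0.169 FPKM, beside 0.506 FPKM for F13A1. Among the thrombin receptors F2RL3 had 0.82 FPKM and F2R 0.493 FPKM. On the anticoagulant side THBD was followed by ANXA5, which covers exposed phosphatidylserine, at 64.0 FPKM and by PROS1, the gene of the protein C cofactor protein S, at 10.6 to 16.2 FPKM. PROC itself, the gene of protein C, had 0 to 9 counts, and SERPINA5 was at 0.

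Of the 8 genes of plasminogen activation, 6 had a mean above 1 FPKM. ENO1, a glycolytic enzyme that also binds plasminogen at the cell surface, stood at 526 FPKM and PLAUR at 20.7 FPKM, while PLG, the gene of plasminogen, was at 0. SERPINB2, at 2.66 FPKM, lay below SERPINE2 (6.56 FPKM), which also inhibits urokinase. With the longest transcript as the length instead of the exon union, SERPINB2 came to 3.39 FPKM and SERPINE2 to 9.74 FPKM. ANO6, a scramblase that exposes phosphatidylserine, had 33.8 FPKM, and GGCX, the vitamin K dependent carboxylase, 4.72 FPKM.

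**Figure D4:**
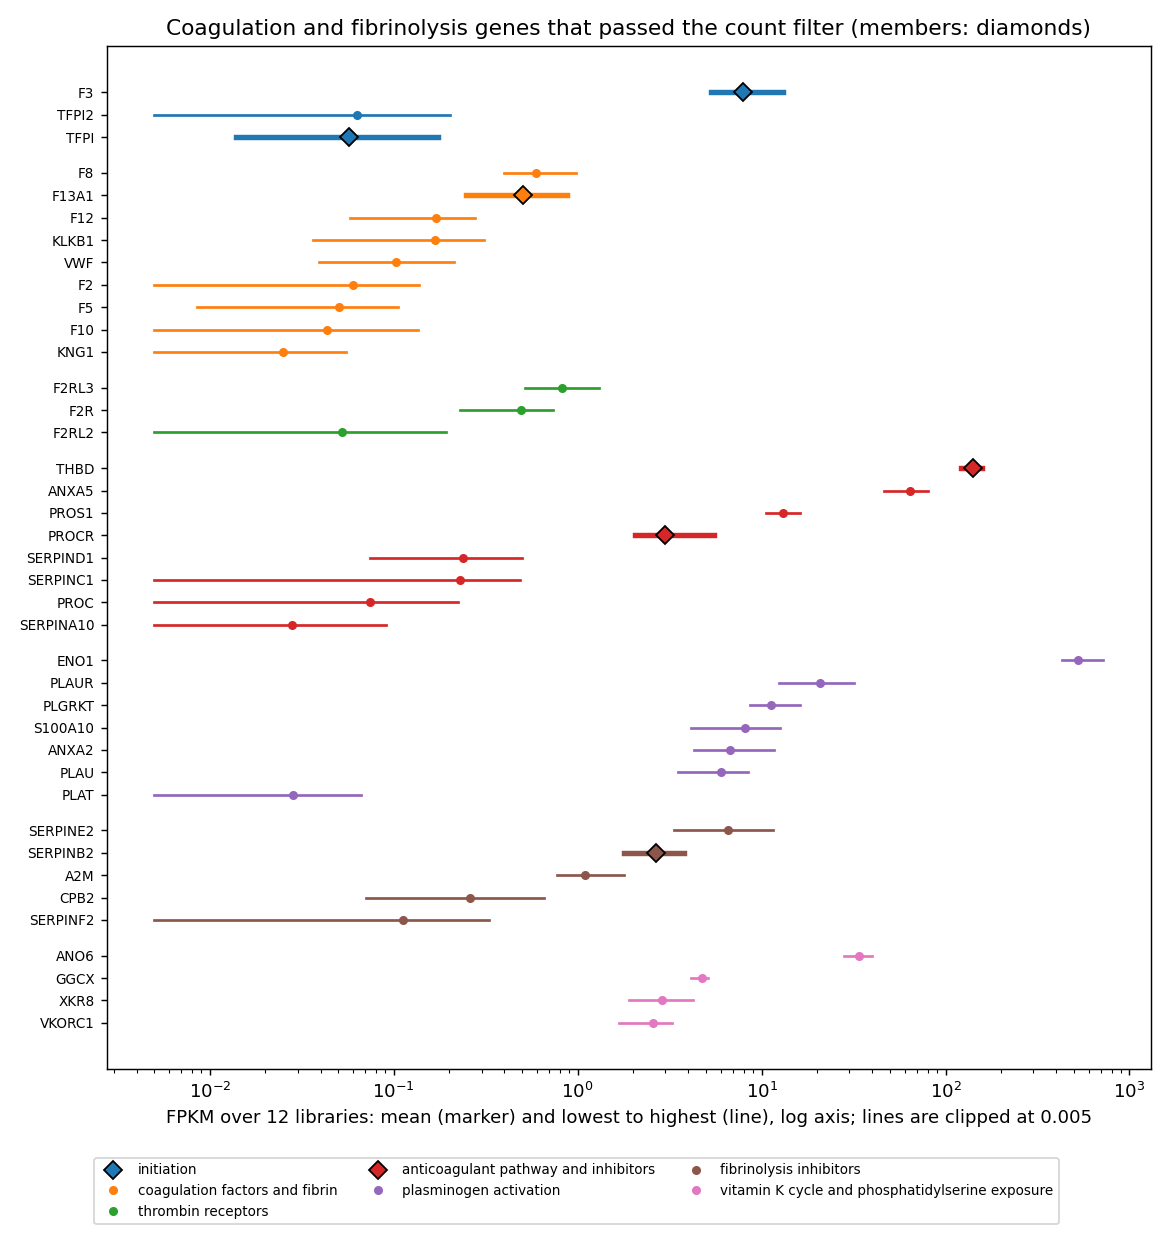
Mean level in FPKM (markers, log axis) and its range over the 12 libraries (lines, clipped at 0.005) of coagulation and fibrinolysis genes that passed the count filter, by role in color, with the 6 members as diamonds. THBD at 141 FPKM is the highest anticoagulant gene, F3 at 7.88 FPKM far exceeds TFPI at 0.057 FPKM, and plasma factors lie below 1 FPKM.

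Of the 34 other pathway genes tested, 1 was called by edgeR in 1 comparison and 0 in the other 6, in the model with the group as its only term. A2M, the gene of the broad protease inhibitor alpha-2-macroglobulin, was at 7.77, 10.4 and 11.3 CPM in mono-culture, at 5.80, 6.15 and 6.28 CPM with control ECs, at 5.26, 6.07 and 5.14 CPM with senECs, and at 4.93, 6.67 and 7.28 CPM with EGCG-treated senECs. All 9 co-culture libraries were below all 3 of mono-culture. In that comparison 2 of the 34 genes, A2M and ENO1, had no overlap. The share of all genes without overlap there is not given. A2M fell by 0.73 on the log2 scale in the mean of the co-cultures against mono-culture (SE 0.15, edgeR adjusted p = 0.0246). Without mono-culture replicate 2 or 3 the adjusted p was 0.241 or 0.246 (edgeR, log2 fold change -0.69 or -0.62). At an unadjusted p under 0.05, edgeR counted 2 of the 34 genes for control ECs (6.52% of all genes), 5 for senECs (11.0%) and 5 for EGCG-treated senECs (8.58%) against mono-culture, and 5 for the mean of the co-cultures (10.7%). It counted 3 between senECs and control ECs (6.6% of all genes), 1 between EGCG-treated senECs and senECs (2.22%) and 4 between EGCG-treated senECs and control ECs (4.55%). DESeq2 called A2M, ENO1 and S100A10 in senECs against mono-culture, S100A10 in EGCG-treated senECs against mono-culture, A2M in the mean of the co-cultures, and none of the 34 in the remaining comparisons.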

How the data were processed

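The authors deposited a table of raw read counts per gene symbol, without normalization, from total RNA of THP1 cells, sequenced as paired reads and aligned with HISAT2 to hg38 per the submitters' processing notes. The counting tool, annotation and use of strand are not given in the sources used here. The 12 columns that match a described sample were used, and 4 columns that match none were left out. Of the rows, 1741 share a symbol with another row and were each kept as a gene.

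The members and the gene lists were chosen with earlier results of these data known. Genes with a sum of at least 10 counts (25873) were tested with edgeR 4.0.16 in R 4.3.3 (quasi-likelihood, TMM normalization, Benjamini-Hochberg adjustment over all genes tested, adjusted p under 0.05) in 1 model of all 12 libraries with the group as its only term. SE was taken from edgeR's F, as the size of the log2 fold change over the root of F. An exact permutation test of 3 against 3 libraries cannot go below p = 0.1, so none was used. DESeq2 1.42.0, other filters and size factors, the compared libraries alone, a replicate block, and each library left out were the alternatives. The code was tested on simulated counts with 200 genes changed 2-fold in control ECs against mono-culture. There edgeR recovered 139 of them with 18 false calls, and DESeq2 149 with 21. CPM uses TMM library sizes, a pseudocount of 2 was added before log2, and FPKM uses exon lengths of GENCODE release 29. Totals had a median of 18153783 counts, and limits given for 3 counts cover counting error only.

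Named genes are the 6 members, other pathway genes called in any comparison, the 2 of highest FPKM per role list, and the 3 most like each member with a mean of at least 1 CPM; 2 genes that this rule names are not reported here. TFPI2, PROC, SERPINA5, PLG, F9, the fibrinogen genes and S100A10 were named after their values were seen. So were the genes highest or lowest in replicate 3 or 5, EGFL7, ROBO4, ERG, KDR and the overlapping genes. Sequences are from RefSeq (GRCh38.p14), where 5 of 6 members matched, all but THBD. Figures were drawn with matplotlib 3.10.9 from tables made in Python 3.11.15 with pandas 2.3.3.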

Additional observations from a re-analysis of the deposited data

How the results depend on the processing

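None of the 865 fits of a member over all settings and comparisons had an adjusted p under 0.05. The lowest was 0.0693, for PROCR in EGCG-treated senECs against mono-culture (edgeR, log2 fold change 0.71) under a block in which replicates 3 and 5 were joined. The number of other pathway genes called did change, and the cause was not tested. DESeq2 called 3 in senECs and 1 in EGCG-treated senECs against mono-culture, where edgeR called 0. Keeping every gene with a count gave 1 for control ECs, 5 for senECs and 3 for EGCG-treated senECs against mono-culture, 4 for the mean of the co-cultures, and 2 each when senECs or EGCG-treated senECs were set against control ECs. Under that filter the share of all genes called was 0.641%, 1.69%, 1.08%, 1.67%, 0.328% and 0.124% in the same order, higher than with the filter used. Leaving out each library gave 0 to 2 for senECs against mono-culture and 0 to 1 for the mean of the co-cultures, which lost its call of A2M without mono-culture replicate 2 or 3. Other filters, DESeq2's size factors and the compared libraries alone kept these counts.

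The replicate numbers were not taken to pair the libraries, since the deviations of same-numbered libraries correlated at 0.03 to 0.58 and those of replicate 2 at 0.09 or less in 4 of 6 pairs. Those of replicate 1, however, correlated at 0.46 to 0.58, and for 8 of 12 libraries the closest library of another group had the same number. The early LPS response list also split by number. Whether the number pairs the libraries is not known, so the results with a block are given too. With a replicate block, pathway genes called were 3 for control ECs, 5 for senECs and 3 for EGCG-treated senECs against mono-culture, 5 for the mean of the co-cultures, and, set against control ECs, 2 for senECs and 1 for EGCG-treated senECs. The share of all genes called rose as well, to 1.81%, 2.74%, 1.64%, 3.18%, 0.591% and 0.131% in the same order. With replicates 3 and 5 joined in the block the pathway genes called were 3, 5, 6, 6, 2 and 2, and the shares of all genes 1.55%, 5.45%, 3.02%, 4.8%, 1.04% and 0.232%. Under either block the pathway genes called were A2M, PLAU and SERPINE2 for control ECs and A2M, ANXA2, ENO1, S100A10 and SERPINE2 for senECs against mono-culture, and ANXA2 and S100A10 for senECs set against control ECs. The replicate block turned the log2 fold change of F3 to -0.11 in the mean of the co-cultures against mono-culture, to -0.04 in senECs against control ECs and to -0.07 in EGCG-treated senECs against senECs (-0.05 with 3 and 5 joined), and the joined block turned that of TFPI in the mean of the co-cultures to 0.03.

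Signs near 0 also turned when single libraries were left out. For the mean of the co-cultures against mono-culture the values ran from -0.14 to 0.17 for F3, -0.48 to 0.34 for TFPI, -0.39 to 0.05 for SERPINB2 and -0.36 to 0.12 for F13A1. For senECs against control ECs they ran from -0.12 to 0.32 for F3, -0.09 to 0.06 for THBD, -0.22 to 0.08 for SERPINB2 and -0.84 to 0.40 for F13A1. For EGCG-treated senECs against senECs they ran from -0.51 to 0.25 for F3, -0.01 to 0.13 for THBD, -0.26 to 1.44 for TFPI, -0.19 to 0.95 for F13A1 and -0.11 to 0.64 for PROCR. PROCR in control ECs against mono-culture ran from -0.02 to 0.21, while in EGCG-treated senECs it stayed between 0.64 and 0.86 against mono-culture and between 0.56 and 0.77 against control ECs. A pseudocount of 0.5 changed 1 of the 3 genes most like F13A1 and none of the other lists. The depth limits TFPI, at 3 to 38 counts, most.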
